A study of Homo sapiens with 6 samples.

Results

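The genes described here come from a list of 39 gene names given as direct transcriptional targets of the tumour suppressor p53. They are called p53 targets below as the list has them, and whether p53 binds each was not tested. A target was measured where a probe set of the Affymetrix HG-U133 Plus 2.0 array was annotated to its symbol alone. Where several were, the probe set with the highest mean log2 intensity over all 6 arrays stood for the gene. This gave 35 of the 39 names, among 19775 genes in all. TNFRSF6B lies only on a probe set that also names another gene, TIGAR2 is not a symbol of the annotation, and FDXR and GLS2 were not analysed here. RNA came from SW480, a long-established cell line from a human colorectal adenocarcinoma. In 3 samples the cells were transfected for overexpression of CPEB3, which binds mRNAs and regulates their translation and stability, and 3 samples were the negative control (NC). The labels call the samples biological replicates but name no separate culture or day, so the p-values reflect only how far these samples differ, which may be technical. They give neither the construct nor the time after transfection.

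In a cell with normal p53, DNA damage or other stress stabilises the protein, which binds response elements near its targets and switches on genes that stop the cell cycle, repair DNA, adjust metabolism or start cell death. Several targets feed back on p53, above all MDM2, the ubiquitin ligase that marks it for degradation. SW480 cells are known as p53-mutant, with a protein that accumulates but activates its targets poorly. Many targets are also driven by other stress pathways and keep a basal level without active p53. The arrays read mRNA levels only, and neither p53 protein nor its activity was measured.

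The transfected gene checks the labels, and it did not match them. The brightest of 4 CPEB3 probe sets averaged 5.37 under the CPEB3 label and 5.32 under the NC label (log2 intensity, limma, Benjamini-Hochberg adjusted p = 0.616), and the other 3, all dimmer, were lower in the arrays labelled CPEB3 by 0.25 to 1.44. A probe set outside the transfected sequence does not see a construct. The groups are therefore named by their labels, and each direction rests on them. Across all probe sets, arrays of one group correlated with r of 0.997 to 0.998 and arrays of different groups with r of 0.991 to 0.992. Of 11 colon epithelial markers 6 lay above the median gene, against 0 of 5 leukocyte and 1 of 8 stromal markers. The summed intensity of each list was nevertheless higher in the arrays labelled CPEB3, at 8594 to 8889 (CPEB3) against 7800 to 7938 (NC) for the epithelial, 70.0 to 80.6 (CPEB3) against 62.8 to 68.7 (NC) for the leukocyte and 178 to 189 (CPEB3) against 167 to 173 (NC) for the stromal list. Their part in the results was not tested.

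The p53 targets did not move as a block. Between the groups 8 targets rose in the arrays labelled CPEB3, namely ZMAT3, TP53I3, RRM2B, TP53INP1, RPS27L, CCNG1, TRIAP1 and CDKN1A. In such bulk RNA, a change in how many cells hold a transcript and a change in its level per cell cannot be told apart. Another 6 fell, namely GADD45B, GADD45A, SERTAD1, CCNG2, MDM4 and GADD45G, and 21 did not pass the test (limma on log2 intensity, Benjamini-Hochberg adjusted p under 0.05 over all genes). The background was wide, since 23.3% of all genes passed, 10.9% as higher and 12.5% as lower. Called genes were more frequent at high levels, and 31 of the 35 targets lay above the median level. Among those, 13 of 31 targets passed (41.9%), against 37% of all genes above that level, so the share called was near that background. By direction 25.8% of these targets rose, against 16.9% of all such genes, and 16.1% fell, against 20.1%. The median difference over the 35 targets was 0.05, beside 0.02 over all genes. The values of the groups did not overlap in 20 of the 35 targets. Of all genes, dim ones included, 39.1% did not overlap, and the share among genes above the median level was not computed. Hybridization spike-ins were dimmer by 0.18 in the arrays labelled CPEB3, and centring each array on them moved every gene up by that amount. It gave 17 of the 35 targets higher and 5 lower, beside 7766 higher and 1038 lower among all 19775 genes. Later counts with spike-in centring are to be read beside that wide shift. All 8 rises of the targets were kept under this centring, and of the 6 falls GADD45G was the one lost.

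**Figure D1:**
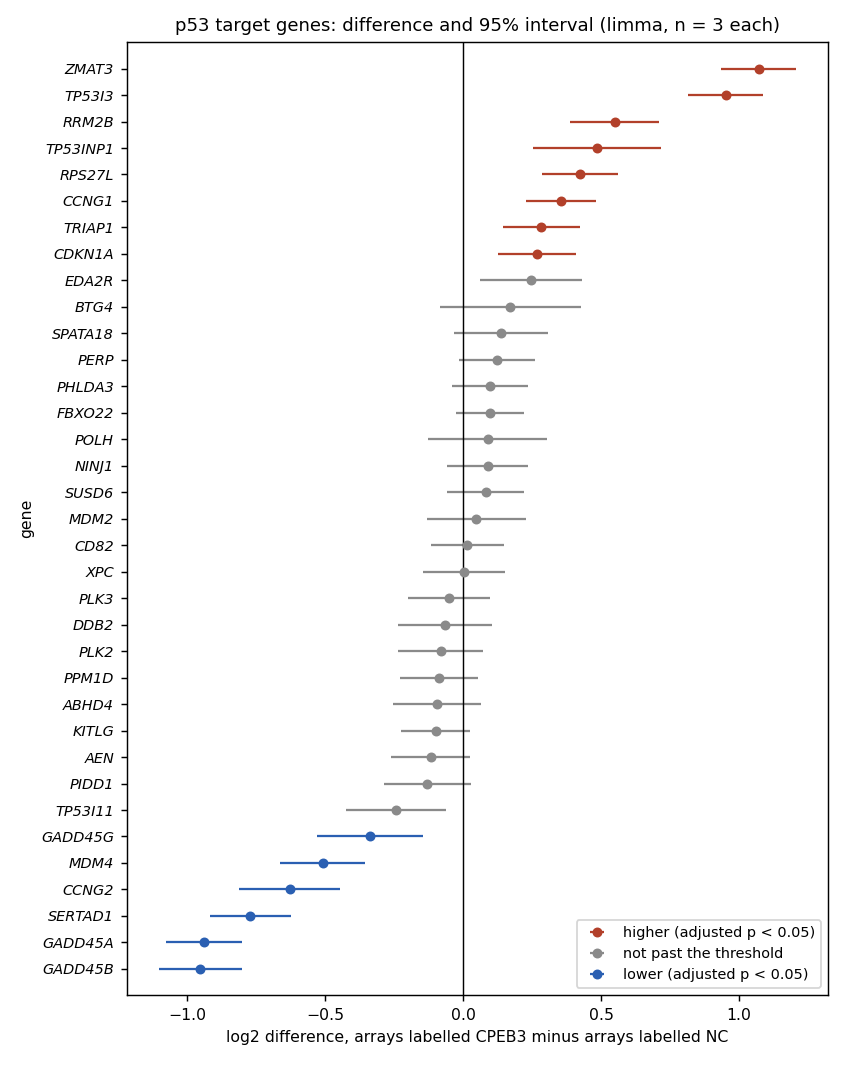
Difference in log2 intensity (arrays labelled CPEB3 minus arrays labelled NC) of the 35 measured p53 targets, ordered by size, with 95% intervals from limma (n = 3 each). The 8 targets past the threshold on the right run from CDKN1A (0.27) to ZMAT3 (1.07), and the 6 on the left from GADD45G (-0.34) to GADD45B (-0.95), with 21 between them.

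Each target is counted below in 1 group by role, though some have roles in other groups too. The growth arrest group held both the steepest rise and the steepest falls. It includes SERTAD1, a cofactor of E2F and cyclin D complexes, whose part in arrest was not tested. Of its 9 measured members 2 rose, 4 fell and 3 did not pass. Of the 7 above the median level 71.4% passed, against 37% of all such genes. CDKN1A encodes p21, the inhibitor of cyclin-dependent kinases that carries most of the p53-driven arrest. Its log2 intensity was 8.97, 8.99 and 9.12 in the arrays labelled CPEB3, against 8.73, 8.75 and 8.79 in the arrays labelled NC. All 3 arrays labelled CPEB3 lay above all 3 labelled NC, yet the rise was small, 0.27 on the log2 scale (SE 0.06, 1.20-fold, adjusted p = 0.0137). Without replicate 3 of CPEB3, the highest array, it was 0.22 with an adjusted p = 0.0502 (3.29e-04 to 0.0502 over all alternatives). CDKN1A has 1 single-gene probe set, which can match several transcripts.

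ZMAT3, a zinc finger RNA-binding protein that regulates splicing and mRNA stability, was the one target to rise by at least 2-fold. It measured 7.48, 7.55 and 7.55 in the CPEB3 arrays and 6.40, 6.44 and 6.52 in the NC arrays, a rise of 1.07 (SE 0.06, 2.10-fold, adjusted p = 4.21e-06). The gap between the groups was far wider than the spread within either. Of its 5 probe sets 4 rose, by 0.77 to 1.39, and the fifth, the dimmest, differed by -0.06.

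The GADD45 genes encode small stress sensors that bind PCNA and the kinase MAP3K4 and take part in arrest, repair and p38 and JNK signalling. All 3 paralogs fell. GADD45A, the member known best as a p53 target, measured 9.04, 9.00 and 8.97 in the arrays labelled CPEB3, against 10.01, 9.87 and 9.94 in the arrays labelled NC. It was 1.92-fold lower (difference -0.94, SE 0.06, adjusted p = 1.04e-05). GADD45B, which NF-kB and TGF-beta signalling also induce, measured 6.26, 6.21 and 6.40 in the CPEB3 arrays and 7.23, 7.21 and 7.29 in the NC arrays. Its fall was of like size, -0.95 (SE 0.07, adjusted p = 1.71e-05), and each of its 4 probe sets fell, by 0.52 to 0.95. GADD45G, a dimmer probe set below the median gene, measured 4.26, 4.52 and 4.55 in the CPEB3 arrays and 4.78, 4.71 and 4.85 in the NC arrays. The groups lay close together there, and the fall of 0.34 (SE 0.08, adjusted p = 0.019) was lost without replicate 1 of NC (difference -0.34, adjusted p = 0.0533) and without replicate 3 of NC (difference -0.30, adjusted p = 0.0583), where the size stayed close, and with spike-in centring (difference -0.16), with adjusted p from 0.00953 to 0.183 over all alternatives.

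SERTAD1, a cofactor of E2F and cyclin D complexes, measured 6.79, 6.89 and 6.70 in the arrays labelled CPEB3, against 7.54, 7.57 and 7.58 in the arrays labelled NC. It was 1.71-fold lower (difference -0.77, SE 0.06, adjusted p = 5.01e-05), and the 3 NC arrays differed from each other by less than 0.05. The polo-like kinases of the stress response did not pass. PLK2 differed by -0.08 (95% interval -0.24 to 0.07, adjusted p = 0.444) and PLK3 by -0.05 (95% interval -0.20 to 0.10, adjusted p = 0.642), with groups that overlapped in both. BTG4, a regulator of deadenylation known from oocytes, was dim in both groups (2.35 in the CPEB3 arrays and 2.18 in the NC arrays, adjusted p = 0.324), so a change of it would be hard to see.

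**Figure D2:**
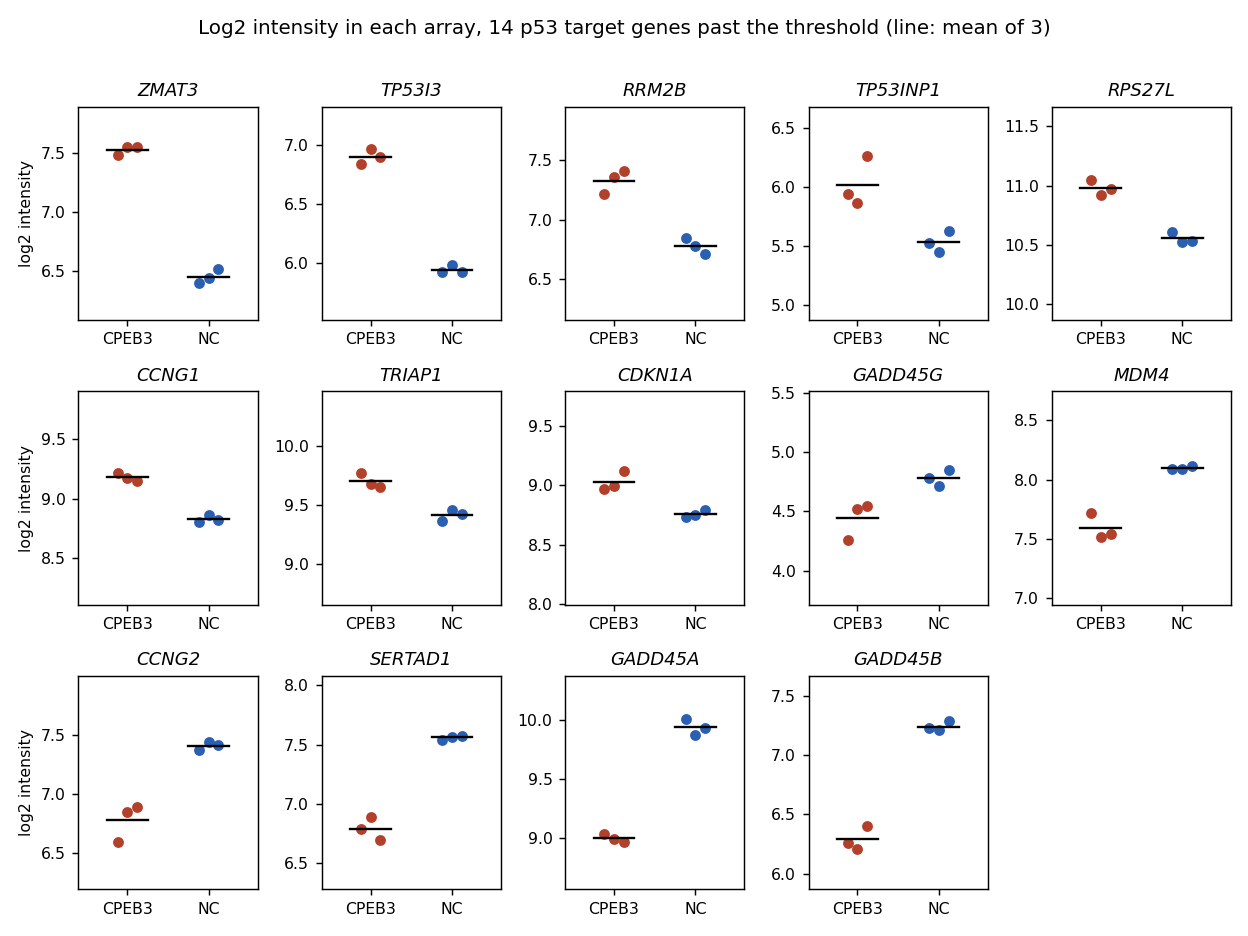
Log2 intensity in each of the 6 arrays for the 14 p53 targets past the threshold, ordered from the largest rise (ZMAT3) to the largest fall (GADD45B), with CPEB3 arrays left of NC arrays in each panel and a line at each mean of 3. Every panel spans the same 1.8 log2 units around its own centre, and in none do the groups overlap.

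The targets grouped under feedback on p53 gave 2 of 8 higher, 2 lower and 4 not past the threshold. All 8 lay above the median level and 50% were called, against 37% of all such genes. The split rests on the grouping. CCNG2 and TRIAP1 are counted in it, and whether they act back on p53 was not tested. RPS27L, which binds MDM2, is counted under cell death. MDM2, the main ubiquitin ligase of p53 and a well-known target, measured 7.89, 7.90 and 7.98 in the arrays labelled CPEB3, against 8.03, 7.75 and 7.84 in the arrays labelled NC. The NC arrays bracketed the CPEB3 arrays, and the difference was 0.05 (95% interval -0.13 to 0.23, adjusted p = 0.722). MDM2 has 10 single-gene probe sets, of which 1 rose, a dim one at 3.75 in the CPEB3 arrays and 3.16 in the NC arrays (difference 0.59, adjusted p over probe sets = 0.00533). It is also the one with the largest variance, and the other 9 did not pass.

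MDM4, the relative of MDM2 that masks the activation domain of p53, measured 7.71, 7.51 and 7.54 in the CPEB3 arrays and 8.09, 8.09 and 8.12 in the NC arrays. It fell by 0.51 (SE 0.07, 1.42-fold, adjusted p = 0.000754), and no CPEB3 array came within 0.3 of an NC array. Its 6 probe sets were uneven. The pair that fell did so by 0.51 and 0.45, while the second brightest differed by -0.16 (adjusted p over probe sets = 0.118) and another by 0.24 the other way (adjusted p over probe sets = 0.133). With the mean of all 6 the difference was -0.17 and not past the threshold (adjusted p = 0.0545, against 2.14e-06 at the lowest among the alternatives).

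The cyclin G genes moved in opposite directions. CCNG1, an early p53 target that recruits the phosphatase PP2A to MDM2, measured 9.22, 9.18 and 9.15 in the arrays labelled CPEB3, against 8.80, 8.86 and 8.82 in the arrays labelled NC. It rose by 0.35 (SE 0.06, 1.28-fold, adjusted p = 0.00188). CCNG2, an unconventional cyclin that FOXO factors also induce and that marks arrested cells, measured 6.60, 6.85 and 6.89 in the CPEB3 arrays and 7.37, 7.44 and 7.41 in the NC arrays. It fell by 0.63 (SE 0.08, 1.55-fold, adjusted p = 0.000648), with 3 of its 5 probe sets lower. The other pair, both dim, differed by 0.14 and 0.19. Brightness does not set them apart, since 1 of the 3 lower was dimmer still (2.79 in the CPEB3 arrays and 3.14 in the NC arrays). With the mean of all 5 the fall was smaller, 0.24, and still past the threshold (adjusted p = 0.011).

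TRIAP1, a small mitochondrial protein that supports survival, measured 9.78, 9.68 and 9.65 in the CPEB3 arrays and 9.36, 9.46 and 9.43 in the NC arrays. Its rise of 0.28 (SE 0.06, adjusted p = 0.00981) was as small as that of CDKN1A, though the groups did not overlap. The p53 phosphatase PPM1D (-0.09, adjusted p = 0.36), the death domain adaptor PIDD1 (-0.13, adjusted p = 0.229) and the ubiquitin ligase subunit FBXO22 (0.10, adjusted p = 0.24) did not pass.

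Among 5 measured targets grouped under DNA repair and nucleotide supply, 1 rose and 0 fell (limma, with 1 and 0 at an unadjusted p under 0.05, and 2 and 0 with spike-in centring). All 5 lay above the median level and 20% passed, against 37% of all such genes. RRM2B, the p53-inducible small subunit of ribonucleotide reductase that supplies deoxynucleotides for repair outside S phase, measured 7.21, 7.36 and 7.41 in the arrays labelled CPEB3, against 6.85, 6.78 and 6.71 in the arrays labelled NC. It rose by 0.55 (SE 0.07, 1.46-fold, adjusted p = 0.000643), with the lowest CPEB3 array well above the highest NC array. The damage recognition genes of nucleotide excision repair gave no such difference. XPC differed by 0.00 (95% interval -0.15 to 0.15) and DDB2 by -0.07 (95% interval -0.24 to 0.10). The exonuclease AEN, counted in this group and not under cell death, differed by -0.12 (95% interval -0.26 to 0.03). The translesion polymerase POLH differed by 0.09 (95% interval -0.13 to 0.31), although 1 of its 6 probe sets rose, by 0.35 (adjusted p over probe sets = 0.0146).

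Of 9 measured targets grouped under cell death, 3 rose and 0 fell (limma, with 4 and 1 at an unadjusted p under 0.05, and 8 and 0 with spike-in centring). Of the 7 above the median level 42.9% passed, beside 37% of all such genes. By direction 42.9% of the 7 rose and 0% fell, against 16.9% and 20.1% of all such genes. TP53I3, also called PIG3, is an oxidoreductase that generates reactive oxygen species. It measured 6.83, 6.96 and 6.89 in the arrays labelled CPEB3, against 5.93, 5.98 and 5.92 in the arrays labelled NC. The rise of 0.95 (SE 0.06, 1.93-fold, adjusted p = 8.53e-06) was the largest after ZMAT3, and arrays of one group differed by less than 0.14. TP53INP1, a stress protein that takes part in autophagy and cell death, measured 5.94, 5.86 and 6.26 in the CPEB3 arrays and 5.53, 5.45 and 5.63 in the NC arrays. It rose by 0.48 (SE 0.10, 1.40-fold, adjusted p = 0.00843), with replicate 3 the highest array of each group. The other pair of its 3 probe sets, both dimmer, did not pass (0.24 and -0.09), and with the mean of all 3 the rise was smaller, 0.21 (adjusted p = 0.0281).

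RPS27L, a paralog of the ribosomal protein RPS27 that binds MDM2, measured 11.05, 10.92 and 10.97 in the CPEB3 arrays and 10.60, 10.53 and 10.53 in the NC arrays. It rose by 0.42 (SE 0.06, 1.34-fold, adjusted p = 0.00114), and all 3 of its probe sets rose, by 0.37 to 0.73. Of the rest, EDA2R, a death receptor of the TNF receptor family, was 3.89 ± 0.08 in the CPEB3 arrays and 3.65 ± 0.14 in the NC arrays (SD, n = 3 each) and missed the threshold (difference 0.25, adjusted p = 0.0605). TP53I11 was 5.44 ± 0.05 in the CPEB3 arrays and 5.69 ± 0.15 in the NC arrays and also missed it (difference -0.24, adjusted p = 0.059). Both had groups that did not overlap, and both passed without replicate 1 of NC (adjusted p = 0.0318 and 0.0102). Over all alternatives their adjusted p ran from 0.00487 to 0.178 and from 0.0102 to 0.577. The other pair of the 3 TP53I11 probe sets, both dimmer, differed by -0.03 and 0.09. With the mean of all 3 the TP53I11 difference was -0.06 (adjusted p = 0.483). The desmosomal protein PERP (0.12, 95% interval -0.02 to 0.26), the AKT inhibitor PHLDA3 (0.10, 95% interval -0.04 to 0.23), the mitophagy gene SPATA18 (0.14, 95% interval -0.03 to 0.31) and SUSD6 (0.08, 95% interval -0.06 to 0.22) did not pass. The groups of PERP did not overlap, and its 5 probe sets differed by 0.04 to 0.23, none past the threshold. PERP passed in 3 of 18 alternatives, spike-in centring among them (adjusted p from 0.0141 to 0.4 over all). PHLDA3, SPATA18 and SUSD6 passed in 1 each.

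None of the 4 measured genes of metabolism and the cell surface passed (limma, with 0 at an unadjusted p under 0.05, and 1 higher with spike-in centring). All 4 lay above the median level, where 37% of all genes passed. The tetraspanin CD82 differed by 0.02 (95% interval -0.12 to 0.15), NINJ1, which drives plasma membrane rupture, by 0.09 (95% interval -0.06 to 0.23), and the lipase ABHD4 by -0.10 (95% interval -0.26 to 0.06). KITLG, the ligand of the receptor KIT, was 11.37, 11.43 and 11.42 in the CPEB3 arrays and 11.49, 11.54 and 11.49 in the NC arrays. The groups did not overlap, but the difference of -0.10 was small (adjusted p = 0.236), and 1 of its 3 dimmer probe sets fell, by 0.39 (adjusted p over probe sets = 0.0348).

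The single-gene probe sets of the 35 targets numbered 91, and 20 targets had more than 1. In none of these 20 did 1 probe set rise and another fall past the threshold. Every probe set passed in the same direction in GADD45B and RPS27L. In ZMAT3, CCNG2, MDM4 and TP53INP1 the call was carried by some probe sets and not by others.

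**Figure D3:**
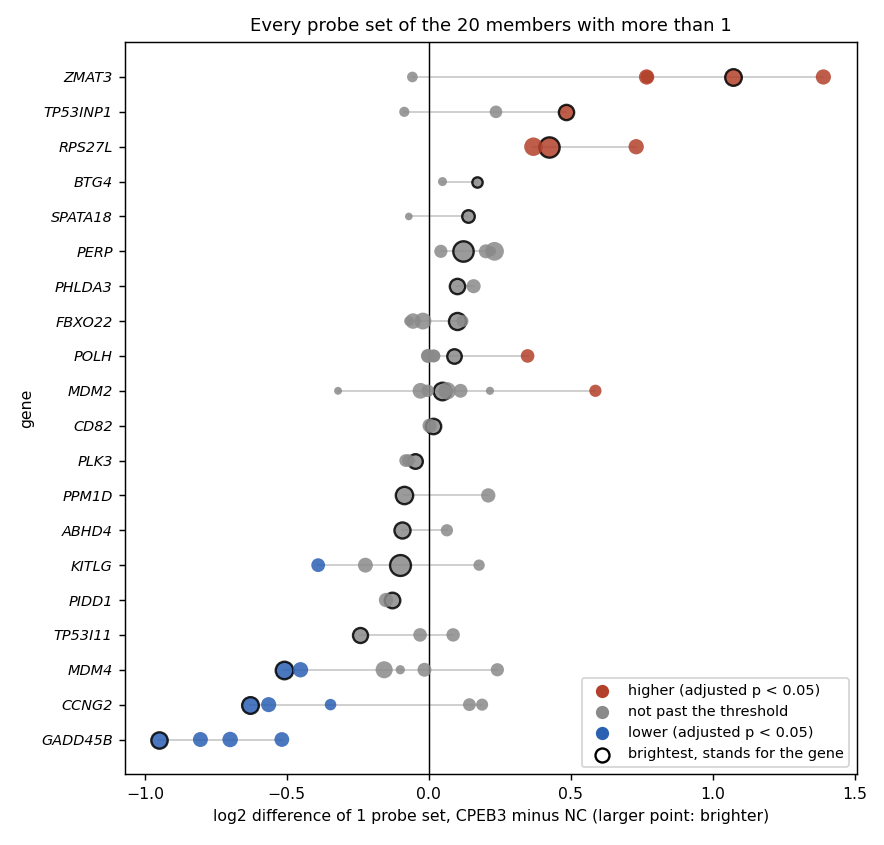
Log2 difference (CPEB3 minus NC) of every single-gene probe set of the 20 p53 targets with more than 1, with larger points for brighter probe sets and a black ring around the one that stands for the gene. The 4 of GADD45B all lie at -0.52 or lower and the 3 of RPS27L at 0.37 or higher, whereas those of MDM4 run from -0.51 to 0.24 and those of MDM2 from -0.32 to 0.59.

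The response elements of p53 are built of pairs of half-sites, so the promoters of the targets were read for single half-sites, with the motifs chosen after the values were known. RefSeq windows (GRCh38.p14) of 250 bases before and 50 bases after the gene start matched 30 of the 35 targets by symbol, and GADD45A, TP53INP1, RRM2B, FBXO22 and PHLDA3 had no entry. A match to the p53 half-site, which reads alike on both strands, was found in 4 of the 30 windows (13.3%), against 6.63% of 35116 windows of all genes. Only 1 window was read for each target, whereas the background counts every window and holds more windows than genes measured here. One of the 4, RPS27L, was among the 6 targets with a window that rose. AEN, PLK2 and ABHD4 did not pass the test, and 0 of the 5 with a window that fell held a match. The half-sites are shown, in capitals with 10 bases on either side on the strand of the gene, because they are the windows where a p53 motif and the measured change can be set side by side.
AEN (chr15:88621296-88621325, strand +): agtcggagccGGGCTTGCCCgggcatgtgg
PLK2 (chr5:58460199-58460228, strand -): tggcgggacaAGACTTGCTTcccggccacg
RPS27L (chr15:63157517-63157546, strand -): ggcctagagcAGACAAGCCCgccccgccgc
ABHD4 (chr14:22598284-22598313, strand +): ggacctggcaAGGCTTGTTTactatggccg
Among these 4 genes RPS27L rose by 0.42 while PLK2 differed by -0.08, AEN by -0.12 and ABHD4 by -0.10. The AP-1 motif TGANTCA, searched on both strands, was in 2 of the 30 windows, PERP and EDA2R, against 7.71% of all windows. The CRE motif TGACGTCA was in 1, PPM1D, against 1.85%, and the NF-kB motif, searched by its consensus, in 0, against 5.91%. Neither the GADD45B nor the GADD45G window held any of these motifs, which says nothing about sites farther away. The whole 250 bases before the start of RPS27L, chr15:63157478-63157727 on the minus strand of GRCh38.p14, are given with the half-site in capitals, as the one promoter of a target that rose and held it.
RPS27L: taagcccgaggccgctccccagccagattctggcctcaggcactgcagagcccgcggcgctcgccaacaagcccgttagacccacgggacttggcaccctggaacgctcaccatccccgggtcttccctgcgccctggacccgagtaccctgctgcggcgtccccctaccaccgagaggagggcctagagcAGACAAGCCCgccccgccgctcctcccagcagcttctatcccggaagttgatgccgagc

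Other established p53 targets outside the list also went both ways. They, like the upstream regulators below, were chosen with earlier results of these data known. Of 59 measured, 12 rose, 21 fell and 26 did not pass (22 higher and 13 lower after spike-in centring). Of the 54 above the median level 57.4% passed, 22.2% as higher and 35.2% as lower, against 37%, 16.9% and 20.1% of all such genes. Their median difference was -0.07, beside 0.02 over all genes. FUCA1, a lysosomal fucosidase, measured 8.44, 8.47 and 8.50 in the CPEB3 arrays and 7.63, 7.77 and 7.72 in the NC arrays (1.70-fold higher, adjusted p = 3.86e-05). CYFIP2, a subunit of the WAVE actin complex, rose 1.68-fold (adjusted p = 4.73e-05), TNFRSF10D, a decoy receptor of TRAIL, 1.53-fold (adjusted p = 0.000356) and SFN, the 14-3-3 protein that holds cells before mitosis, 1.47-fold (adjusted p = 0.000399). Of the falls, TAP1, the peptide transporter of antigen presentation and an interferon-induced gene, measured 6.03, 6.26 and 6.27 in the CPEB3 arrays and 8.47, 8.52 and 8.55 in the NC arrays (5.02-fold lower, adjusted p = 1.02e-07). The stress transcription factor ATF3 was 3.87-fold lower (adjusted p = 9.92e-08) and the antiproliferative gene BTG1 2.04-fold (adjusted p = 6.19e-06). TRIM22, also interferon-induced, fell as well (adjusted p = 0.000558), at 2.26, 2.31 and 2.50 in the CPEB3 arrays and 3.90, 3.56 and 3.21 in the NC arrays, but no fold is given because its CPEB3 arrays lay at the level of the dim BTG4.

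Upstream of p53, 8 of 25 measured regulators fell and 0 rose (limma, with 10 lower and 3 higher at an unadjusted p under 0.05, and 7 lower and 6 higher with spike-in centring). Of the 24 above the median level 33.3% passed, near the 37% of all such genes, with 33.3% lower against 20.1% and 0% higher against 16.9%. MDC1, a scaffold of the DNA damage response, measured 6.99, 6.89 and 7.07 in the CPEB3 arrays and 7.50, 7.67 and 7.73 in the NC arrays (1.57-fold lower, adjusted p = 0.000476). The checkpoint kinase CHEK2 was 1.55-fold lower (adjusted p = 0.000961), the p53 inhibitor PPP1R13L (iASPP) 1.46-fold (adjusted p = 0.000386) and the acetyltransferase EP300 1.43-fold (adjusted p = 0.00486). Regulators of both signs for p53 were thus among those that fell.

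The DREAM complex represses cell cycle genes when p21 is high, and a list of its targets was set beside CDKN1A. This list was chosen with earlier results of these data known. Of 29 measured, 16 fell and 1 rose (11 and 2 after spike-in centring), and the median was -0.30, beside 0.02 over all genes. All 29 lay above the median level, and 55.2% of them fell and 3.45% rose, against 20.1% and 16.9% of all such genes. The mitotic kinase AURKB averaged 6.21 ± 0.03 in the CPEB3 arrays and 7.08 ± 0.09 in the NC arrays (SD, n = 3 each), 1.82-fold lower (limma, adjusted p = 2.36e-05). MKI67 was 1.73-fold lower (adjusted p = 5.6e-05), TOP2A 1.65-fold (adjusted p = 0.000128) and CDC20 1.63-fold (adjusted p = 0.000123). The 1 that rose was the phosphatase CDC25A, at 7.53, 7.38 and 7.40 in the CPEB3 arrays and 6.93, 7.21 and 7.13 in the NC arrays (1.27-fold, adjusted p = 0.0153). Whether these falls are tied to the rise of CDKN1A was not tested.

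**Figure D4:**
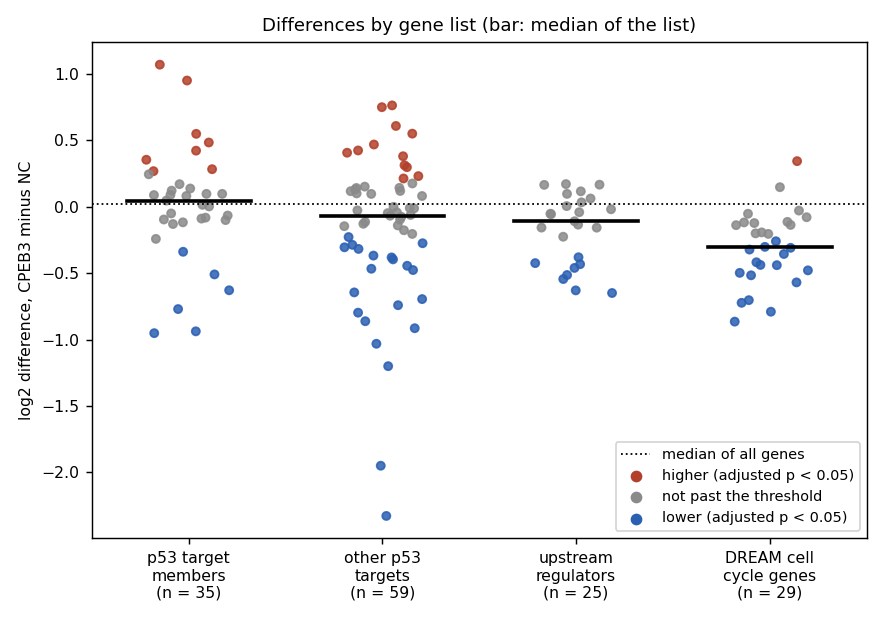
Log2 difference (CPEB3 minus NC) of each measured gene in 4 lists, with a bar at each list's median and a dotted line at the median of all genes (0.02). The p53 target list is spread on both sides of a median of 0.05, against medians of -0.07 for other p53 targets, -0.11 for upstream regulators and -0.30 for DREAM cell cycle genes.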

How the data were processed

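For each of 6 arrays (HG-U133 Plus 2.0) the authors deposited 1 normalized intensity per probe set on a linear scale, made with RMA per the submitters' processing notes. The RMA version, and how its log2 values became linear, is not given in the sources used here. RMA makes the arrays' distributions alike, so total RNA is not measured, and differences of dim probe sets are compressed. No detection calls were used, arrays have no read depth, and their number limits the precision.

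Log2 was taken of the deposited intensity. Of 54675 probe sets 41091 carried 1 symbol (1801 several), and 0 symbols needed an update through Entrez identifiers to RefSeq (GRCh38.p14). The brightest single-symbol probe set stood for each of 19775 genes. Differences are CPEB3 minus NC, tested with limma 3.58.1 in R 4.3.3 (two-sided, 4 residual and 5.06 prior degrees of freedom), with p-values adjusted after Benjamini-Hochberg over all genes (threshold 0.05). Adjusted p over probe sets comes from the same test on all single-symbol probe sets. The steps were tested on simulated data. Figures were drawn with matplotlib 3.10.9.

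The members and lists were chosen with earlier results of these data known. The rule named every measured member, CPEB3, and up to 4 rises and 4 falls of largest size past the threshold in each further list. Alternatives covered the probe set rule, dim genes, scaling, the variance model, array weights, the replicate block, the threshold and leaving out each array.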

Additional observations from a re-analysis of the deposited data

How the results depend on the processing

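The 8 rises and 6 falls among the targets ranged from 7 to 9 and from 5 to 6 when each array was left out in turn. With spike-in centring 17 targets were higher and 5 lower, other p53 targets gave 22 and 13, and all genes 7766 and 1038. With probe sets open to several transcripts left out, 31 targets were left, of which 5 rose and 6 fell; CDKN1A, TP53I3 and CCNG1 had no probe set there, and other p53 targets gave 6 and 10 among 46. At a threshold of 0.01 all genes gave 1083 higher and 1520 lower. With the replicate number as a block 8 targets rose and 6 fell, with no call changed. Deviations of same-numbered arrays from their group means correlated with r of 2.7e-04, -0.02 and 0.12. The highest r of CPEB3 replicates 1, 2 and 3 with an NC array of another number was 0.02, 0.12 and -0.003. With 3 arrays a group, these values cannot tell whether the numbers pair the samples. Single probe sets ran against the gene's call, none past the threshold, in MDM4 (0.242), ZMAT3 (-0.058), TP53INP1 (-0.086) and CCNG2 (0.143 and 0.188). Calls of CDKN1A, MDM4 and GADD45G were lost as given with each gene, and those of CDKN1A and GADD45G also at the threshold of 0.01.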

Other observations

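Some targets of the longer list, singled out after their values were seen, are known for their part in apoptosis, and the values stand for these genes alone. PMAIP1 (NOXA), a BH3-only protein, averaged 9.97 under the CPEB3 label and 10.83 under the NC label, a difference of -0.86 (limma, Benjamini-Hochberg adjusted p = 1.27e-05). APAF1, the core of the apoptosome, fell by 0.74 on the log2 scale, whereas BAX differed by 0.00 (adjusted p = 0.998). Of the death receptors and their decoys, FAS rose by 0.38 and TNFRSF10D by 0.61, and TNFRSF10B fell by 0.32. TNFRSF10A (-0.07) and TNFRSF10C (-0.06) did not pass, nor did the caspase CASP10 (-0.01). The sestrins SESN1 and SESN2, stress-induced restrainers of mTORC1, differed by 0.31 and -0.91, both past the threshold.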
